A study of Mus musculus with 5 samples.

Results

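Wide KAP1 peaks without Ring1b are stretches of chromatin where KAP1 was called over at least 1500 bp and no Ring1b peak was called at any base. They were taken from the KAP1 peak list of mouse embryonic stem cells, on chromosomes 1 to 19, by width and by the absence of any overlap with the Ring1b peak list. Of the 81762 KAP1 peaks on those chromosomes, 861 met both conditions, which is 1.05%. A further 791 were as wide and overlapped a Ring1b peak, 69614 were narrower and had no Ring1b peak, and 10496 were narrower and had one. These peaks were chosen by their measured width and by the lack of a Ring1b call, so both are given here as description and not as findings, and so are scores, which come from the same library.

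Binding was measured by chromatin immunoprecipitation and sequencing (ChIP-seq) in 5 libraries, 1 per group. KAP1 was mapped with an anti-KAP1 antibody from Abcam (5 µg) in KAP1 fl/fl ES cells given ethanol vehicle, and the control of that peak list was KAP1 ChIP from KAP1 fl/fl cells given 4-hydroxy-tamoxifen. Ring1b was mapped with an anti-Ring1b antibody from MBL (3 µg) in Ring1b fl/fl ES cells given vehicle, against the same ChIP from Ring1b fl/fl cells given the drug. The remaining list came from Ring1b ChIP in KAP1 fl/fl cells given the drug, called against Ring1b ChIP in drug-treated Ring1b fl/fl cells; it is called the knockout list here, and it shares that control library with the vehicle Ring1b list. Exposure lasted 24 h, and 48 h of culture followed, with the drug kept on for Ring1b fl/fl cells and withdrawn for KAP1 fl/fl cells. All cells grew on irradiated mouse embryonic fibroblasts (MEFs), and the labels do not say which Cre acts on the floxed alleles or how many clones were used. The presence of KAP1 and the absence of Ring1b were therefore read in separate cell lines, without replicates. Peak lists hold no RNA levels, so neither the cell type nor the deletion could be checked with marker genes, and the sources used here give no read depths.

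KAP1, encoded by Trim28, is a corepressor that binds no DNA by itself. It is brought to chromatin by KRAB zinc finger proteins, and it gathers the histone methyltransferase SETDB1 and HP1 proteins, which makes it a main silencer of retroelements in embryonic stem cells. Ring1b, encoded by Rnf2, belongs to Polycomb repressive complex 1, where it ubiquitinates histone H2A at CpG-rich promoters of developmental genes.

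The 4 highest-scoring members that lay over a RefSeq transcript start were those of Pltp, Ankrd10, Brwd1 and Zbtb37, and their promoters are shown as examples of the sequence under these peaks. Each is the 250 bases just before the start, 5′ to 3′ on the gene's strand, from RefSeq on GRCm38.p6, with CpG dinucleotides in capitals. All 4 genes lie on the minus strand, and the stretches are chr2:164857709-164857958 for Pltp, chr8:11635758-11636007 for Ankrd10, chr16:96082429-96082678 for Brwd1 and chr1:161034850-161035099 for Zbtb37.
Pltp: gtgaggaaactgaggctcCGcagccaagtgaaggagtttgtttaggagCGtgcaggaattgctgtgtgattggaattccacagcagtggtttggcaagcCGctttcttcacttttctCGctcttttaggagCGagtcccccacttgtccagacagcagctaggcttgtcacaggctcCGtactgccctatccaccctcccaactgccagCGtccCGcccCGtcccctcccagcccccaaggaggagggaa
Ankrd10: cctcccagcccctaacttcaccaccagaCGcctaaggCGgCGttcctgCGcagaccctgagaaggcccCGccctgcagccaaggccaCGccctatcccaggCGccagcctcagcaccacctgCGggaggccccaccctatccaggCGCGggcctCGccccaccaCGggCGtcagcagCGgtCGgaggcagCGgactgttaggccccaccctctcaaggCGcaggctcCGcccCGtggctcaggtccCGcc
Brwd1: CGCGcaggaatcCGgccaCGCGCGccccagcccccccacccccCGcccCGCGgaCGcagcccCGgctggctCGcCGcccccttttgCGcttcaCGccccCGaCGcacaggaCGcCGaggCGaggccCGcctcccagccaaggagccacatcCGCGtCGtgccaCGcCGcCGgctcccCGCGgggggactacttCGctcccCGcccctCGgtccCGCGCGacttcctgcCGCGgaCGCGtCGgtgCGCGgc
Zbtb37: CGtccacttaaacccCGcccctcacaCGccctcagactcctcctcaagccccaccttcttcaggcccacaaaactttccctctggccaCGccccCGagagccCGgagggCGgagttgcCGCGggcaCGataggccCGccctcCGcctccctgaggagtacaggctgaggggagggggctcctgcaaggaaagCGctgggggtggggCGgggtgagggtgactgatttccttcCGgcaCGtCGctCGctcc
Brwd1, which encodes a bromodomain protein, had 42 CpG dinucleotides in its 250 bases, and Pltp, the phospholipid transfer protein gene, had 9. Ankrd10 had 20, and Zbtb37, a BTB-domain zinc finger gene, had 18.

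A wide peak also covered the hairpin of Mir205, a microRNA gene known from epithelial cells. It scored 982 over 2479 bp (chromosome 1, 193506966 to 193509444), the second highest score among members at a deposited promoter, and its nearest protein-coding gene, Camk1g, was 136610 bp away. The mature sequences of its arms, from RefSeq with the seed (bases 2 to 8) in capitals, are given because, of the members over a microRNA hairpin, this one scored highest.
mmu-miR-205-5p: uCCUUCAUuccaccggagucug
mmu-miR-205-3p: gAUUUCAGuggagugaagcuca
Members overlapped 4 other microRNA genes, Mir7653, Mir6935, Mir207 and Mir7238, of which Mir7238 lies under the same peak as the Ankrd10 start. In all, 5 of the 861 members, 0.581% (exact interval 0.189 to 1.35), overlapped a microRNA gene, against 0.157% of all KAP1 peaks. The share was 0.759% (0.279 to 1.64) for wide peaks with Ring1b and 0.118% for narrower peaks without it. Such overlap rises with width, and it was not particular to members among wide peaks.

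Most members were only slightly wider than the minimum. The narrowest was 1500 bp, the median 1727 bp and the widest 10430 bp, and 693 of the 861 were under 2000 bp. Only 29 reached 3000 bp, 21 of them under 4000 bp and 8 of 4000 bp or more. The median score was 299 for members under 2000 bp, 391 from 2000 to 3000 bp, 506 from 3000 to 4000 bp and 354 above. The score, the peak caller's −log10 p against the control library times 10, ran from 50.4 to 1914 with a median of 318.7. The 791 wide peaks with Ring1b had nearly the same median width, 1746 bp, and a median score of 359.7. Just inside the width minimum stood peaks at Plec (1500 bp, score 436), Slc38a1 (1501 bp, score 148) and between Psma7 and Ss18l1 (1501 bp, score 197). Just outside it stood peaks at Mapkapk3 (1499 bp, score 404), Sinhcaf (1498 bp, score 117) and Dbnl (1497 bp, score 281). Nothing in these values separates the peaks on either side of the minimum.

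**Figure D1:**
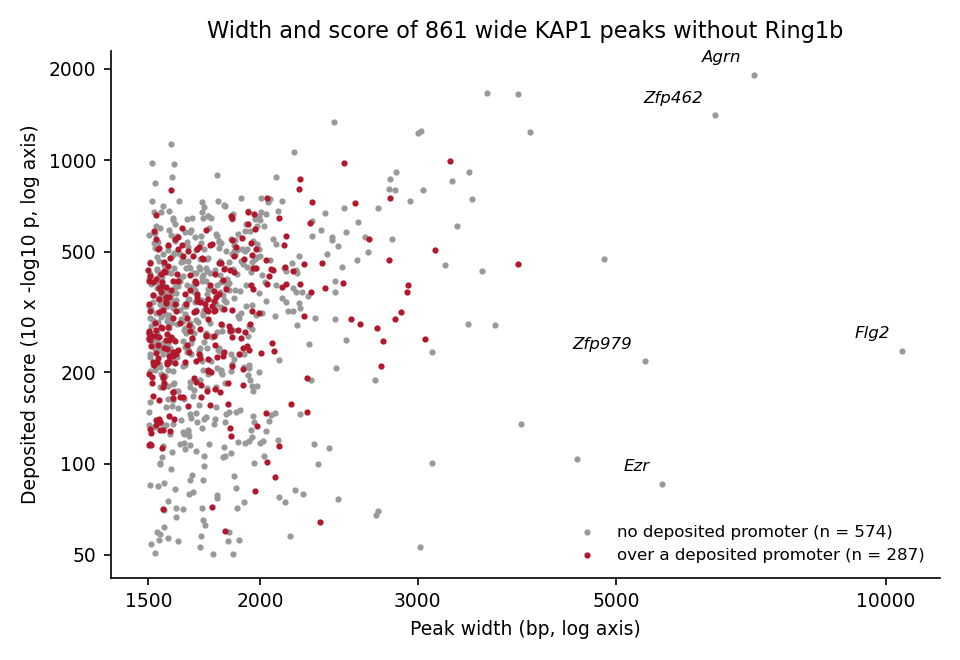
Width (x axis, bp, log scale) against deposited score (y axis, 10 x −log10 p, log scale) of each of the 861 members, with the 287 over a deposited promoter in red and the other 574 in grey. Scores range widely at every width, and the 8 members of 4000 bp or more, among them those of Flg2, Agrn, Zfp462, Ezr and Zfp979, are all grey.

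The widest member lay in Flg2, which encodes a filaggrin-family protein of the skin barrier. It spanned 10430 bp (chromosome 3, 93203524 to 93213953) with a score of 235, below the members' median. A second member in the same gene, 703 bp away, was 1729 bp wide with a score of 98.2. KAP1 peaks together covered 56.0% of the 24.1 kb Flg2 gene, none of them with Ring1b.

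The highest-scoring member lay in Agrn, the gene of agrin, an extracellular matrix proteoglycan of the neuromuscular junction. It was 7130 bp wide (chromosome 4, 156168420 to 156175549) and scored 1914. The next Agrn member was 3887 bp wide and scored 1655, and the third was 2147 bp wide and scored 319. None of the 3 covered a transcript start, and KAP1 peaks covered 63.9% of the gene's 32.2 kb. Zfp462, a zinc finger gene expressed in stem cells, held a member of 6450 bp (chromosome 4, 55007218 to 55013667) that scored 1409.

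Other high-scoring members were also wider than most. A 3581 bp peak (chromosome 1, 90445261 to 90448841) scored 1666, although its nearest protein-coding gene, Cops8, was 154118 bp off. A peak near Klhdc8a scored 1340.1 over 2417 bp, and one overlapping the kinase gene Dyrk3 scored 1248 over 3028 bp. The peak near Tmem267, 4849 bp wide, scored 474. Among the 6 widest members, those below the median score were Flg2, Zfp979 (5378 bp, score 218) and Ezr, the gene of the membrane linker ezrin (5625 bp, score 85.8).

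A promoter in the deposited tables reaches 1 kb before and after a transcript start, and is listed where KAP1, Ring1b or both were called. By that measure 287 members, or 33.3% (exact 95% interval 30.2 to 36.6), lay over a promoter, against 18.5% of all KAP1 peaks. The share was 61.4% (57.9 to 64.8) for wide peaks with Ring1b and 12.8% for narrower peaks without it. A wide peak touches more features by its length alone, so the summit, a single base, was used as well. The summits of 247 members, 28.7% (25.7 to 31.8), were inside a deposited promoter, against 17.0% of all KAP1 peaks, 52.3% of wide peaks with Ring1b and 11.7% of narrower peaks without it. Members therefore stood between the wide peaks that have Ring1b and the narrower ones that lack it. The intervals treat peaks as independent and cover counting error only, not differences between libraries.

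The authors' promoter classes rest on the same contrasts of KAP1 and Ring1b, vehicle against drug, as the rule. How members split between the classes is therefore not independent of the rule. Of the 287 members at promoters, 278 were in the authors' KAP1-only class and 9 were at promoters classed with both proteins. At those 9 the Ring1b peak was beside the KAP1 peak and not under it, 63 to 1282 bp away. They were the promoters of Gli2, an effector of Hedgehog signalling (gap 63 bp), the histone variant gene H3f3a (92 bp), Fhod1 (107 bp), Bcl3 (144 bp), 1810013L24Rik (196 bp), Dusp27 (392 bp), the exonuclease gene Aen (513 bp), BB283400 (835 bp) and the AP-1 gene Jund (1282 bp).

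**Figure D2:**
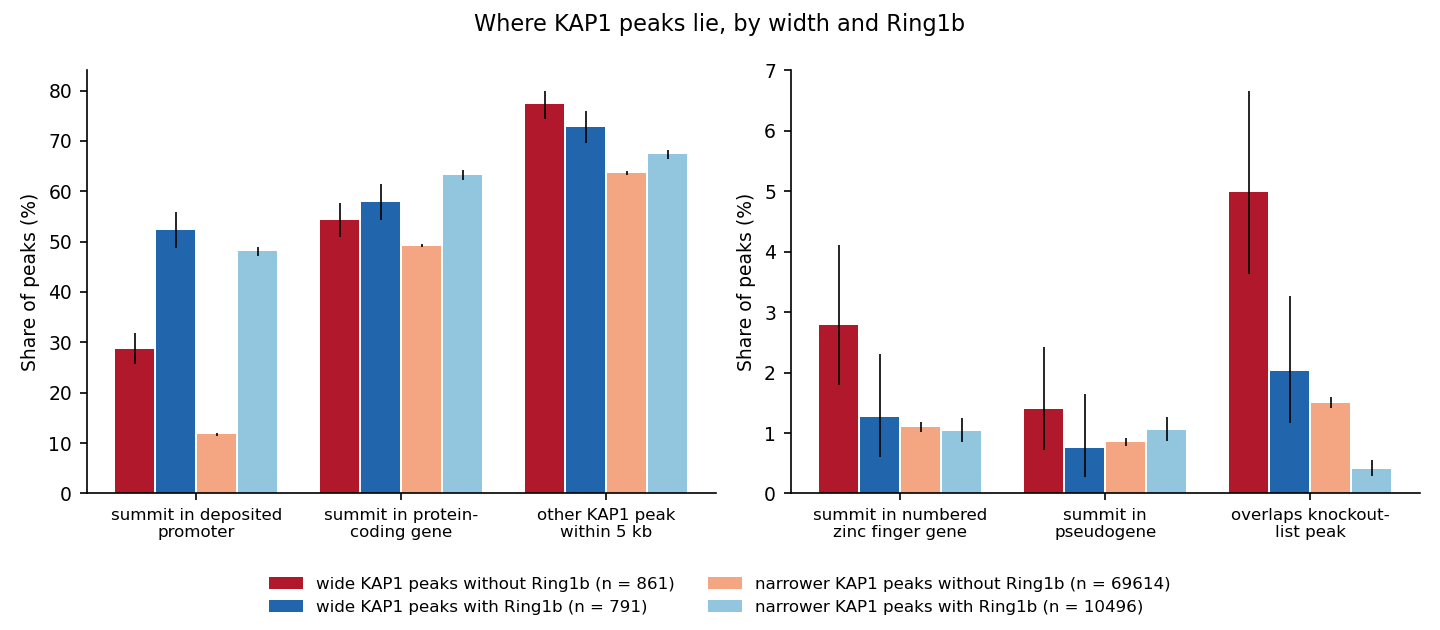
Share of peaks (y axis, %) with each feature (x axis) for the 4 groups of KAP1 peaks, with exact 95% binomial intervals as error bars. Members (dark red) sit between the wide peaks with Ring1b and the narrower ones without it at deposited promoters (28.7%, 52.3% and 11.7%), and at 4.99% they have the highest share overlapping the knockout list, which is counted over whole peaks and so rises with width (29.8 knockout-list peaks per Mb of members, 27.6 per Mb of narrower peaks without Ring1b) and is not independent of how members were chosen.

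RefSeq starts were listed here for 16457 of the 20665 protein-coding genes on these chromosomes, and for none on chromosome 18. Starts of the remaining genes could not be counted. A listed start was covered by 228 of 842 members (27.1%, 24.1 to 30.2), against 11.0% of all KAP1 peaks. Wide peaks with Ring1b covered a listed start in 48.7% of cases. Such coverage rises with width. By summit, 26.1% (23.2 to 29.2) of members were within 1 kb of a listed start. It was 14.1% for all KAP1 peaks and 44.5% for wide peaks with Ring1b. Where a member covered a single start, its reach was nearly even, with a median of 809 bp before the start and 902 bp after it (166 members). Among these, 91 reached farther after the start than before it, 54.8% (46.9 to 62.5). The 302 wide peaks with Ring1b reached a median of 676.5 bp before and 1075 bp after the start, and 73.8% (68.5 to 78.7) reached farther after it. At 1000 bp after the start, 39.8% of the members still covered the position, against 59.3% of the wide peaks with Ring1b. Starts of 2 genes lay under the same peak in 29 members, 12.7% of those covering a start, and in 28 of them the genes were on opposite strands. For wide peaks with Ring1b it was 26, or 6.86%. The pair of Glud1, the glutamate dehydrogenase gene, and Shld2, a DNA repair gene, is an example, under a member of 1715 bp that scored 223.

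**Figure D3:**
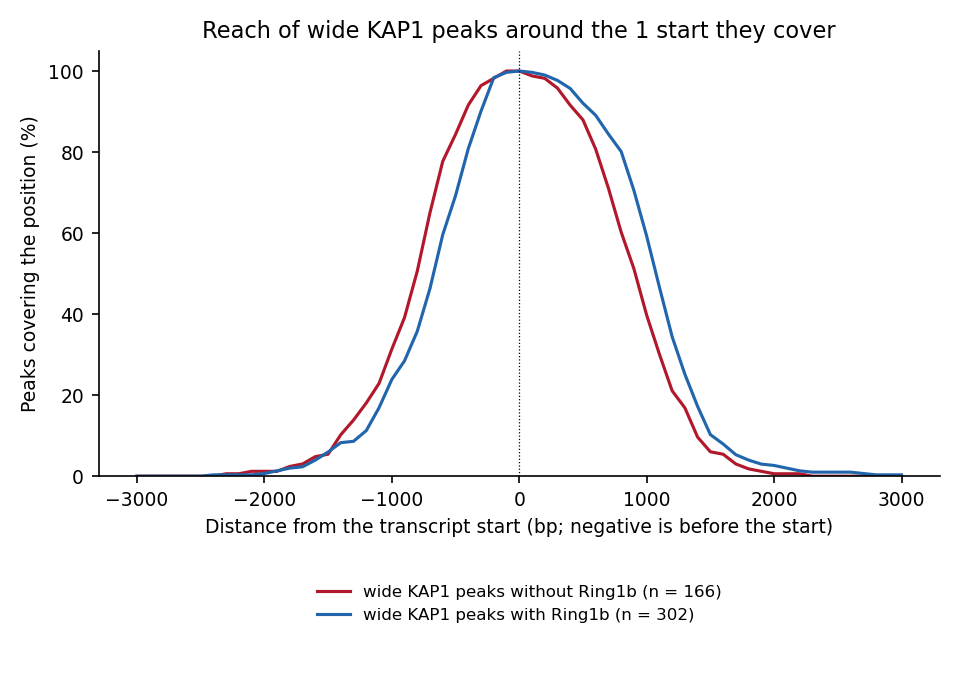
Share of peaks (y axis, %) that cover each position around the transcript start (x axis, bp, negative before the start), for 166 members and 302 wide peaks with Ring1b that cover 1 start. The red curve of the members is close to symmetric, while the blue curve is shifted to the right, with 39.8% and 59.3% of peaks covering the position 1000 bp after the start.

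The starts under members were rich in CpG dinucleotides, as were starts under other KAP1 peaks. Over the 300 bases from 250 before to 50 after each start, the median CpG observed/expected ratio was 0.81 for the 318 starts under members (interval of the median 0.78 to 0.83), and the median GC content was 67.7%. The ratio was 0.79 under wide peaks with Ring1b and 0.78 under narrower peaks without it. It was 0.25 at the 9803 starts without a KAP1 peak and 0.59 over all 20085 starts. Of the 318 starts under members, 30 had a ratio under 0.4. Among the promoters printed above, which do not reach that low, the ratio over the 300 bases was 1.11 for Brwd1, 0.71 for Ankrd10, 0.66 for Zbtb37 and 0.50 for Pltp. These starts belong to 256 genes, so some windows share bases.

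**Figure D4:**
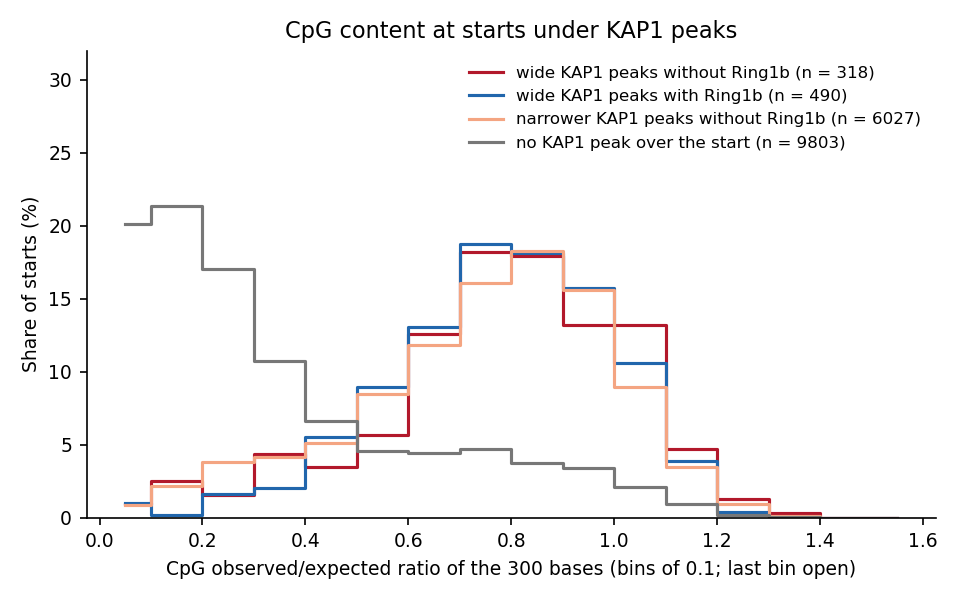
Distribution of the CpG observed/expected ratio (x axis, bins of 0.1) as the share of starts (y axis, %) in 4 groups of starts. The 3 groups under KAP1 peaks have nearly the same shape, with medians of 0.78 to 0.81, and the starts without a KAP1 peak (grey) have a median of 0.25.

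Short motifs were counted in the same 300 bases on both strands, where neighbouring motifs may share end letters. GGGCGG, the GC box of Sp1-type factors, was found at 77.4% of the starts under members (72.4 to 81.8), 79.8% under wide peaks with Ring1b, 66.7% under narrower peaks without Ring1b and 47.0% of all starts. CCGGAAG, a core of ETS factor sites, was found at 15.7% (11.9 to 20.2) of the members' starts. Under wide peaks with Ring1b it was found at 7.55% (5.37 to 10.3), under narrower peaks without Ring1b at 23.7%, and at 11.9% of all starts. TGCCGC, the core recognised by the KRAB zinc finger protein ZFP57, was found at 30.2% (25.2 to 35.6), 24.9% (21.1 to 29.0), 20.4% and 14.2% in the same order. The NF-Y box CCAAT was found at 40.3% (34.8 to 45.9) of the members' starts and 38.1% of all starts. Under wide peaks with Ring1b it was found at 31.2% (27.1 to 35.5), and under narrower peaks without Ring1b at 38.4%. TTTGCAT, part of the octamer bound by Oct4-type factors, was found at 1.26% of the members' starts and 4.29% of all starts. CACGTG, also counted, was found at 9.43% and 7.89%. A match says only that the letters are present. Median GC content of these windows was 67.7% for members, 67.3% for wide peaks with Ring1b, 61.0% for narrower peaks without Ring1b and 57.0% for all starts. Its part in the shares of GC-rich motifs was not tested.

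Counting those at promoters, 573 members (66.6%) overlapped a protein-coding gene, against 55.8% of all KAP1 peaks. By summit, which does not depend on width, it was 54.4% (51.0 to 57.7) against 51.2%. Members that overlapped a protein-coding gene but covered no start were 331 of 842, 39.3% (36.0 to 42.7), below the 44.8% of all KAP1 peaks and the 45.0% of narrower peaks without Ring1b. In all, 199 members (23.1%) overlapped no annotated gene, against 34.9% of all KAP1 peaks, a share that falls with width. By summit, 35.5% (32.3 to 38.8) of members lay outside annotated genes, against 39.7% of all KAP1 peaks. Of the 614 members on chromosomes other than 18 that covered no listed RefSeq start, the summit was within 5 kb of one in 63, between 5 and 20 kb in 180, between 20 and 100 kb in 272 and farther in 99. Genes without a listed start make some of these distances too long and add to the 331. The members at the deposited promoters of Plec and 2610301B20Rik, for example, were 826978 and 6344320 bp from the nearest listed start. The 3 most remote members were 357185 bp from Fat3, 326718 bp from the deiodinase gene Dio3 and 324019 bp from Nyap2, and they scored 194, 149.8 and 179.9, all below the members' median. The reference gives neither exons nor introns.

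Most members had a KAP1 neighbour. Another KAP1 peak lay within 5 kb of 665 of them, 77.2% (74.3 to 80.0), against 64.3% of all KAP1 peaks, and the median gap to the nearest KAP1 peak was 1024 bp against 2581 bp for narrower peaks without Ring1b. For wide peaks with Ring1b the share was 72.8% (69.6 to 75.9). The nearest Ring1b peak was a median of 30743 bp away, with a range of 33 to 718337 bp, and lay within 5 kb of 151 members, 17.5% (15.1 to 20.2). The closest was beside the member at Tex44, at 33 bp. Narrower peaks without Ring1b were somewhat farther from Ring1b, with a median of 37746.5 bp and 12.8% within 5 kb.

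Another member lay within 50 kb of 234 members (27.2%), which formed 95 runs, 34 of them with 3 or more. The same count was not made for other groups of KAP1 peaks, so this share is description only. It also depends on the width minimum, at 57.1% of 4950 peaks with 1000 bp and 22.6% of 168 peaks with 2000 bp. The run with the most members was in Ctbp2, the gene of a corepressor that works with many zinc finger repressors, where 5 members spanned 38.2 kb (chromosome 7, 133036880 to 133075110) without a Ring1b peak. Their widths were 1812, 1609, 1918, 3317 and 1720 bp and their scores 323, 346, 229.8, 605 and 727. The first 4 are separated by at most 453 bp, and the fifth is the highest-scoring.

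A run of 4 crossed from Sytl3 into Ezr over 14.8 kb (chromosome 17, 6735207 to 6750012), where all 4 KAP1 peaks were members and none lay on a start. The scores, 747, 85.8, 145 and 430.1, differed widely between direct neighbours. Another run of 4 joined Dusp27 and Gpa33 on chromosome 1, with scores of 527 to 866 and 3 Ring1b peaks within its span. The runs of 4 at Ahdc1, and across Ptpn14 and Smyd2, had scores of 106 to 390.2 and 202 to 401. Of the members in these 5 runs, 1 covered a start, at Dusp27. Another 4 runs had 4 members each but spanned more, at Pgs1 and Socs3, Dynlt1a and Dynlt1b, Dlgap4, and Zfp978 and Zfp982.

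Chromosome 1 carried 111 members, 1.51% (1.24 to 1.82) of its KAP1 peaks, against 0.737% to 1.29% on the other 18 chromosomes. The median score of its members was 384, against 309 for members elsewhere, and that of chromosome 16 was higher, at 436. Higher scores on chromosome 1 were not particular to members. Its KAP1 peaks of any kind had a median score of 105.9, against 90.7 (chromosome 14) to 98.8 (chromosome 15) on the other 18. Chromosome 1 held 7 of the 20, 8 of the 50 and 21 of the 100 highest-scoring members, beside 12.9% of all members.

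**Figure D5:**
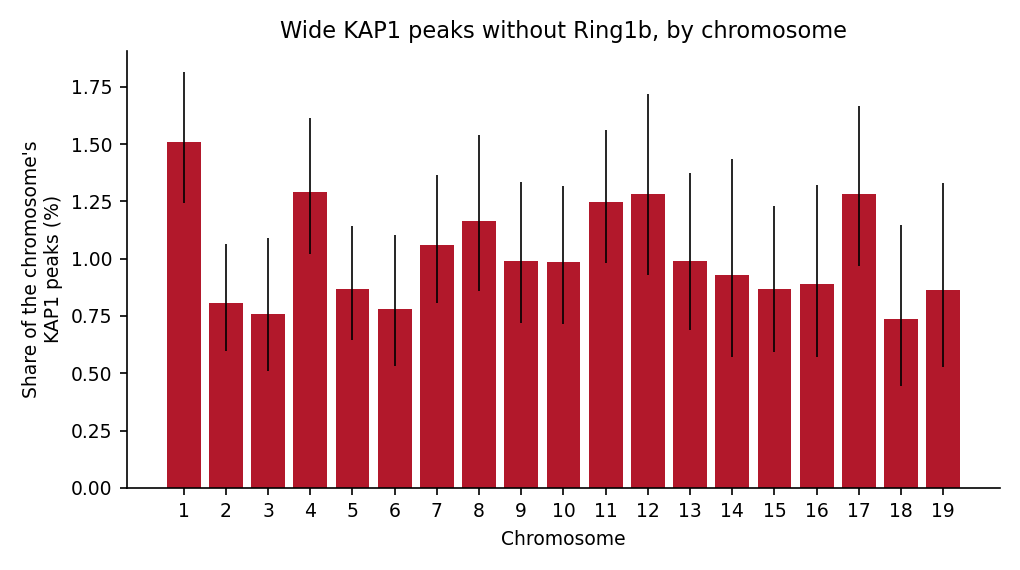
Members as a share of each chromosome's KAP1 peaks (y axis, %; x axis, chromosome), with exact 95% binomial intervals. Chromosome 1 is highest at 1.51%, and its interval of 1.24 to 1.82 lies above those of chromosomes 2, 3, 5, 6, 15 and 18 and overlaps the rest.

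Members were then counted over lists of genes by function. Over all 20665 protein-coding genes on these chromosomes, 1.30% had a member at a deposited promoter and 2.77% anywhere in the gene. Among 31 housekeeping genes, 5 had a member at the promoter, 16.1% (5.45 to 33.7). Tubb5, a tubulin gene, scored 475, the glycolytic enzyme genes Gapdh and Aldoa scored 368 and 336, and the chaperone gene Hspa8 scored 275. None of the 80 ribosomal protein genes had a member at the promoter, although 48 had a KAP1 peak there.

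Among 18 genes of the LIF and STAT3 pathway, which keeps mouse stem cells in self-renewal, 3 had a member. Tfcp2l1, a target of STAT3, held members that scored 629.8 and 531, both inside the gene, and the kinase gene Pim1 scored 355 at its promoter. The factor gene Klf4 scored 353 with a peak of 1570 bp across its start. Esrrb, another gene of the pluripotency list, held members scoring 466 and 279.8 inside the gene. In all, 5 of 38 pluripotency-associated genes held a member, 13.2% (4.41 to 28.1). Of these, 2 had it at the promoter, 5.26% (0.644 to 17.7), an interval that includes the 1.30% of all genes. Counts over whole genes rise with gene length, which was not adjusted for. The median span was 42.6 kb for the LIF and STAT3 list, 11.6 kb for the pluripotency list and 17.5 kb for all protein-coding genes.

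Of 24 MAPK pathway genes, with a median gene span of 26.3 kb, 4 held a member. Spred2 (score 732) and the receptor gene Fgfr4 (714) carried it inside the gene, and Spry4 (487) and Spred1 (336) at the promoter. Of 24 TGF-beta and BMP pathway genes, Lefty1, a Nodal antagonist, scored 316 and the receptor gene Acvr2b scored 172, both at the promoter. Among 35 Polycomb subunit genes, Mtf2, a PRC2 accessory factor, scored 317 and Cbx6 scored 217, both at the promoter. Among 34 KAP1 pathway genes, the methyltransferase gene Dnmt1 scored 231 at its promoter and the HP1 gene Cbx3 scored 254 inside the gene. At the promoter, 2 of 29 cell cycle genes had a member, Ccnd3 (434) and E2f3 (115). It was 1 of 40 imprinted genes, Impact (436), and 1 of 40 neuroectoderm regulators, Olig1 (349), and each of those shares, 2.50% (0.0633 to 13.2), has an interval that includes the 1.30% of all genes. So do the promoter intervals of the MAPK and TGF-beta lists (each 8.33%, 1.03 to 27.0) and the Polycomb list (5.71%, 0.700 to 19.2). The same holds for the KAP1 pathway list (2.94%, 0.0744 to 15.3) and the cell cycle list (6.90%, 0.846 to 22.8). Members lay in 6 of 66 genes of a list of Zscan, Zkscan and Zbtb zinc finger genes, where the 4 highest scores were at BTB-domain genes, Zbtb37 (751), Zbtb7a (644), Zbtb7b (442) and Zbtb32 (350.2), and in 2 of 19 nuclear noncoding RNA genes, Gas5 and Neat1. A single peak scoring 368 lay over the clustered histone genes H2ac18 and H3c14 and the promoter window of H2ac19. Of 39 germline genes, Tex14 held one, scoring 153.

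Several families had none. No member lay in any of 39 Hox genes, 25 endoderm regulators, 38 mesoderm regulators, 23 Wnt pathway genes, 19 trophectoderm regulators, 57 clustered protocadherin genes or 24 totipotency-associated genes. The exact upper limit is 9.03% for the Hox genes and 14.8% for the Wnt genes, so a share near that of all genes cannot be told apart from none in lists of this size. The rule also leaves out every KAP1 peak that overlaps Ring1b, so absence from lists of developmental genes is not independent of it. How many wide KAP1 peaks with Ring1b lie in these lists was not counted. Of the 24 fibroblast markers, which stand for the feeder cells, none had a member and 11 had a KAP1 peak at the promoter; the part of feeder chromatin in the peaks was not tested. None of 1100 olfactory receptor genes (upper limit 0.335%) or 352 vomeronasal receptor genes had one, but only 6 and 3 of these have a KAP1 promoter peak of any width.

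Numbered zinc finger genes, many of which encode the KRAB proteins that recruit KAP1, were overlapped by 26 members, 3.02% (1.98 to 4.39), against 1.25% of all KAP1 peaks and 1.39% (0.696 to 2.47) of wide peaks with Ring1b. By summits it was 2.79% against 1.11%. Of 388 such genes, 22 were overlapped and 3 had a member at a deposited promoter. Besides Zfp462, the highest scores were those of Zfp936 (695), Zfp672 (534) and Zfp180 (340.1).

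On chromosome 4, between 145701297 and 147810608, 10 of these 26 members lay over clustered genes such as Zfp979, Zfp982 and Zfp534. This stretch of 2.11 Mb held 14 numbered zinc finger genes, 94 KAP1 peaks and 23 Ring1b peaks, and 17 members in all. Scores of those 10 were low, from 54.3 to 218 with a median of 83.9, while the other 16 had a median of 290.5. Low scores were not particular to members there, since the 94 KAP1 peaks of the stretch had a median score of 88.3. Their median width was 1012.5 bp, against 514 bp for all KAP1 peaks. Without the zinc finger genes of chromosome 4, Zfp462 among them, the share was 1.51%. The genes of this cluster are closely related copies, and the sources used here do not say how reads that map to several places were counted, so their part in these peaks was not tested.

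Pseudogenes were overlapped by 21 members, 2.44% against 1.04% of all KAP1 peaks, and held the summit of 12, 1.39% (0.722 to 2.42) against 0.884%. Of the 21, 6 lay in the chromosome 4 stretch described above, so the pseudogene and zinc finger counts partly come from the same place. Of the 58 members that scored under 100, 6 (10.3%, 3.89 to 21.2) were over a deposited promoter, 7 (12.1%) over a numbered zinc finger gene and 7 (12.1%) over a pseudogene. Another KAP1 peak lay within 5 kb of 39.7% (27.0 to 53.4) of them. Of the 289 members scoring 400 or more, 28.4% were over a promoter, 1.73% over a zinc finger gene and 1.04% over a pseudogene, and 89.6% (85.5 to 92.9) had a KAP1 peak within 5 kb. Promoter overlap was highest between them, at 41.0% of the 363 members that scored 200 to 400. Score and the presence of neighbours come from the same library.

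After deletion of KAP1, a knockout-list Ring1b peak lay over 43 members, 4.99% (3.64 to 6.67), against 1.40% of all KAP1 peaks. It was 2.02% (1.16 to 3.26) for wide peaks with Ring1b and 1.50% for narrower peaks without it. Per length of chromatin the gap to the narrower peaks was small, with 29.8 knockout-list peaks per Mb of members against 27.6 per Mb of narrower peaks without Ring1b and 10.7 per Mb of wide peaks with Ring1b. The vehicle Ring1b list decided which peaks became members, and it shares its control library with the knockout list, so overlap with the second list is not independent of the rule. No vehicle Ring1b library from KAP1 fl/fl cells was used here, and the effects of the deletion and of the cell line cannot be told apart.

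The highest knockout-list scores at members were on chromosome 8. A member overlapping Gm40469 (chromosome 8, 20548903 to 20551329, 2427 bp, score 299) met a knockout-list peak scoring 247. Members 38283 and 68960 bp from Gm15319 met peaks scoring 200.3 and 149, and one near 4930467E23Rik met a peak scoring 124. These 4 lie within 1 Mb of chromosome 8 and had their nearest vehicle Ring1b peak at least 194191 bp away. How reads that map to several places were counted is not stated for this stretch either, and their part in these peaks was not tested. The members over the Glud1 and Shld2 starts and over the Ankrd10 start met peaks scoring 104 and 92.8. Without chromosome 8, which holds 6 of the 43, the share was 4.55%.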

How the data were processed

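KAP1 and Ring1b ChIP-seq peaks were analysed from 5 libraries, 1 per group. The submitters' processing notes name MACS 1.4.2, bedtools 2.16.2, CASAVA 1.8.2 and Bowtie2, with build mm10 (GRCm38). Per the file headers, each peak list came from 1 library called against 1 control library, and each deposited score is 10 times the −log10 p of the authors' peak caller, which ranks peaks within 1 list. No file columns were left unmapped.

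From these, overlaps (at least 1 bp), gaps, shares and medians were computed in Python 3.11.15 with pandas 2.3.3, numpy 2.4.6 and scipy 1.17.1, checked on simulated intervals. Shares carry exact (Clopper-Pearson) 95% intervals; 1 library per group allows no test. Genes, promoters and starts came from RefSeq GRCm38.p6, and 12939 of 13039 deposited promoters matched by accession. Starts were listed for 16457 of the 20665 protein-coding genes on chromosomes 1 to 19, and no start was used on chromosome 18. The members and lists were chosen with earlier results of these data known. Named were the 6 widest, the 6 highest-scoring, the 6 highest-scoring at promoters, the 5 runs with most members (ties by shortest span), the 6 highest knockout-list scores, up to 4 genes per list, the 3 most remote and the 3 at each side of the width minimum. Tex44, the promoters classed with both proteins, the microRNA genes and the 4 further runs were named after their values were seen. Alternatives were other widths, gaps, overlap rules and score ranges.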

Additional observations from a re-analysis of the deposited data

How the results depend on the processing

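The number of members depended most on the width minimum, at 4950 with 1000 bp and 168 with 2000 bp, and was 3423 where KAP1 peaks under 500 bp apart were merged first. With a minimum of 1000 bp, the gap to the nearest KAP1 peak was 1384 bp and 57.1% had another member within 50 kb. With 2000 bp, 6.55% overlapped a numbered zinc finger gene, 8.93% a knockout-list peak, 80.4% had a KAP1 peak within 5 kb, the gap was 727.5 bp, 22.6% were in runs and the CpG ratio was 0.73. With no Ring1b peak within 5 kb, the KAP1 gap was 1324.5 bp, 72.7% had a KAP1 peak within 5 kb, the Ring1b gap was 41004.5 bp and 22.0% were in runs. In the upper 50% of member scores, 1.62% overlapped a zinc finger gene, the KAP1 gap was 604 bp, 86.8% had a KAP1 peak within 5 kb, the Ring1b gap was 21500.5 bp, 20.6% were in runs and the CpG ratio was 0.75. By summits, promoter overlap was 28.7%, and by midpoints 58.1% lay in a protein-coding gene, or 76.9% in any annotated gene by overlap. Against KAP1 peaks in the upper 50% of scores the gap was 2504 bp, and 94.0% had a KAP1 peak within 20 kb. Within 1 kb, 7.32% had a knockout-list peak, and 16.3% were in runs with gaps of at most 20 kb. Among alternatives chosen after seeing the data, leaving out chromosome 1 gave 23.9% in runs, and leaving out the zinc finger genes of chromosome 4 gave 1.51%. The cause of these shifts was not tested beyond what each alternative changes by construction. No paired analysis was possible because each group has 1 library and no result comes from a test between groups. The sources used here give no read depth, so how it limits width or the absence of Ring1b was not tested.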
